A study of Lactuca sativa with 53 samples.

Results

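The early cold response of the lettuce (Lactuca sativa) cultivar UC96US23 was taken from 6 of the 53 libraries of the study, 3 from plants kept at 20 °C and collected at 0 h and 3 from plants moved to 4 °C for 4 h. The libraries were chosen by cultivar and time in the sample labels, and no measured value entered the choice. All 6 came from 18-day-old plants without any transgene or mutation named in the labels, raised on soil under a 16-h photoperiod. The 0 h plants are the warm-grown control, and the labels give the tissue as aerial tissue, while the methods speak of leaf samples. Of the 23933 genes listed, the 23443 with at least 0.5 counts per 1000000 reads (CPM) in at least 2 of the 23 cold-series libraries were tested. The other libraries drawn on below are UC96US23 at 24 h and 7 d at 4 °C (3 libraries each) and the cultivar PI 284702, 2 warm-grown libraries at 0 h and 3 libraries at 4 h of cold.

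AP2/ERF proteins are plant transcription factors that share the AP2 DNA-binding domain. In Arabidopsis, members of the DREB subfamily bind the CRT/DRE element, and among them the CBF (DREB1) genes are switched on within hours of chilling and activate genes of cold acclimation. The ERF subfamily binds mainly the GCC box and is known from ethylene, jasmonate and stress responses, the AP2 subfamily from development, and RAV proteins carry a B3 domain beside the AP2 domain. In lettuce, the AP2/ERF family has been named by the study, and 14 of its members are LsCBF genes. A total of 143 AP2/ERF genes were listed with values here and 140 were tested, including 10 of the 11 listed LsCBF genes. Names for genes outside this family were not paired with the identifiers, so no other pathway, and no marker of leaf or of any other tissue, is described by name.

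Between 19932942 and 21092969 reads were counted per library at 0 h and between 18365210 and 18502831 at 4 h, so that 1 read was worth between 0.0474 and 0.0545 CPM. Replicate 2 at 4 h stood apart. Its chi-square per gene against the other 4 h replicates was 26.4 and 31.7, compared with 5.26 between those others and with 5.61 to 9.09 among the 0 h replicates. On the first principal component it lay at 61.3, against 34.2 and 32.1 for the other 4 h libraries and -48.3 to -36.4 for the 0 h libraries. On the second component it lay at 39.0, against -23.3 and -29.5 for the other 4 h libraries, so it departed from them along both axes. Results are therefore also given without it. The 4 h plants were collected at another clock time than the 0 h plants, so cold and clock time cannot be told apart in this contrast. The methods give a dimmer light for cold treatment than for growth, but the study took its cold values from another series, and whether this light also held for the libraries here is not stated in the sources used. If it did, light cannot be told apart from cold either. In bulk tissue, a lower level from fewer cells of a type and one from less RNA per cell cannot be told apart either.

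At 4 h of cold, 1009 genes were upregulated (4.3% of those tested) and 546 were downregulated (2.33%), 6.63% together, with a threshold by limma of 0.01 for the adjusted p and of 1 for the size of the log2 fold change. Fold changes are on the log2(CPM + 0.5) scale, which understates changes of weakly expressed genes. With edgeR the shares were 4.96% and 2.29%. Without 4 h replicate 2, 963 genes were upregulated, 848 of them among the 1009, and 329 were downregulated, 290 of them among the 546. Larger changes were mostly upward. A log2 fold change of at least 2 was reached by 166 upregulated and 19 downregulated genes, and one of at least 3 by 42 and 1. The upregulated genes together rose from 15441 to 47868 CPM (means of 3 libraries), while the downregulated genes together fell from 15374 to 6017 CPM. Of the upregulated genes, 25 had at most 3 reads in every 0 h library.

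On the log2(CPM + 0.5) scale, the greatest rise of all genes tested belonged to Lsat_1_v5_gn_1_47261.1, which carries no name in the files. It had 0.552, 0.806 and 0.480 CPM in the 0 h replicates and 71.1, 33.4 and 85.0 CPM in the 4 h replicates, a log2 fold change of 5.74 ± 0.27 (SE, adjusted p = 5.06e-13 by limma). The groups were far apart, and the lowest 4 h value was that of replicate 2. The greatest fall on that scale was that of Lsat_1_v5_gn_5_99920.1, with 57.5, 83.0 and 58.5 CPM at 0 h and 6.30, 6.43 and 7.62 CPM at 4 h. Its log2 fold change was -3.18 ± 0.20 (SE, adjusted p = 8.94e-11 by limma). Its 4 h libraries lay close together.

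Among the 140 AP2/ERF genes tested, 35 (25%) were upregulated and 4 (2.86%) were downregulated, against 4.3% and 2.33% of all genes. The median log2 fold change was 0.48 in the family and -0.03 over all genes. In 71 AP2/ERF genes all 4 h libraries lay above all 0 h libraries (50.7%), which was so for 19.1% of all genes, and in 12 all 4 h libraries lay below, which was so for 23.6% of all genes. Part of the family entered the test only through its level in the cold. Restricted to the 111 AP2/ERF genes with at least 0.5 CPM in at least 2 libraries at 0 h, 24 were upregulated (21.6%) and 4 downregulated (3.6%), where 4.26% of the 20950 genes of that kind were upregulated and 2.61% downregulated. Of the 39 calls, 28 were kept whichever of the 6 libraries was left out, 4 were lost without 4 h replicate 2, and 38 were also made by edgeR. A pseudocount of 2 ended 16 of them, those of LsERF002, LsERF015, LsERF023, LsERF028, LsERF046, LsERF050, LsERF051, LsERF052, LsERF056, LsERF086, LsERF096, LsERF116, LsERF121, LsERF152, LsAP2.14 and LsAP2.28. Fitting only the 6 libraries compared ended 14, those of LsERF005, LsERF080, LsERF104, LsERF171 and 10 of the 16.

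The calls were counted by subfamily. The DREB subfamily held 19 upregulated and 2 downregulated genes among 43 tested, the ERF subfamily 14 and 1 among 72, the AP2 subfamily 1 and 1 among 21, and RAV 1 and 0 among 2, while neither of the Soloist genes passed the test. Within the DREB subfamily, subgroup III, to which the CBF genes belong, held 13 upregulated genes of 25, 9 of them LsCBF genes and 4 among the other 15. In subgroup VII, which in Arabidopsis includes factors of the response to low oxygen, 0 of 7 genes passed the test, at log2 fold changes from -0.23 to 0.57, and 2 of the 7 had an unadjusted p under 0.05 upward and 1 downward. In subgroup X 0 of 6 passed, at 0.09 to 0.63, and 0 had an unadjusted p under 0.05. With edgeR's quasi-likelihood test, 0 genes passed in either subgroup.

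**Figure D1:**
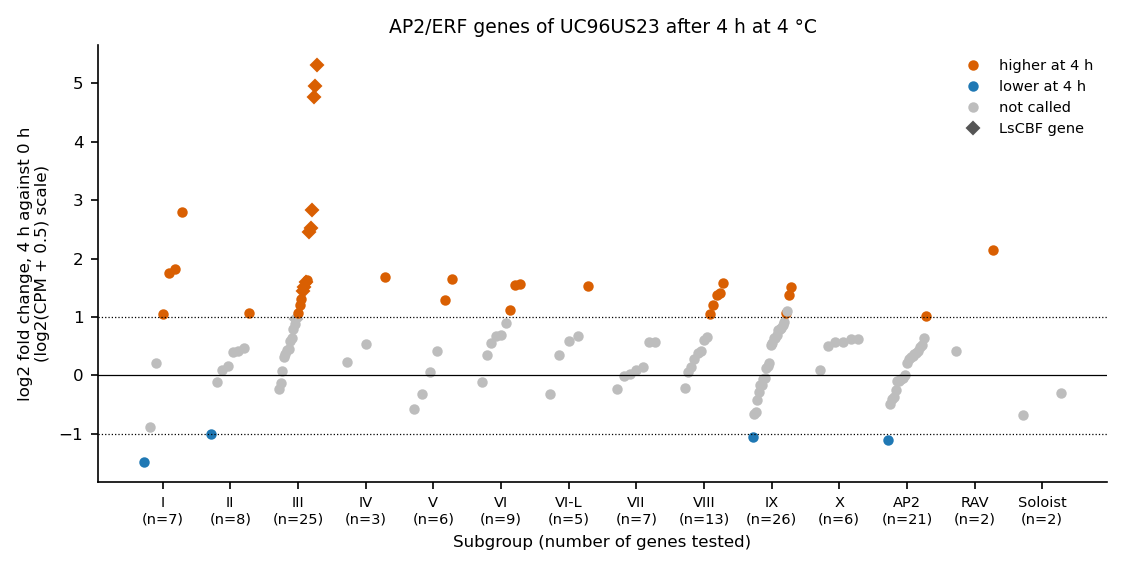
Log2 fold change at 4 h of cold against 0 h in UC96US23 (y axis, log2(CPM + 0.5) scale) for the 140 AP2/ERF genes tested, by subgroup (x axis), with each point 1 gene, colours for the call, diamonds for LsCBF genes, and dotted lines at a log2 fold change of 1 and -1. The 3 points above 4 are all LsCBF genes of subgroup III.

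The LsCBF genes held the 4 largest fold changes of the family. LsERF063 (LsCBF10), LsERF062 (LsCBF11) and LsERF061 (LsCBF12) ranked 2, 3 and 4 of all 23443 genes by log2 fold change. They lie on linkage group 9 of lettuce genome version 8 within a tandem array, on the minus strand, LsERF063 at 63099989-63100651, LsERF062 at 63158427-63159059 and LsERF061 at 63227251-63227994. The closest Arabidopsis match given for each is CBF4. Because the array arose by duplication and the handling of reads that map to several copies is not given in the sources used here, the division of reads among the copies is uncertain, and the sum over the LsCBF genes is given as well.

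LsERF062 (Lsat_1_v5_gn_9_54780.1) had 2.86, 3.13 and 3.22 CPM at 0 h and 116.5, 92.6 and 123.6 CPM at 4 h. Both groups were tight and did not overlap, and the log2 fold change was 4.96 ± 0.15 (SE, adjusted p = 2.98e-16 by limma). LsERF063 (Lsat_1_v5_gn_9_54860.1) was close to silent in warm plants, with 0, 0.142 and 0 CPM at 0 h, and reached 24.2, 17.4 and 22.2 CPM at 4 h. Its log2 fold change was 5.31 ± 0.26 (SE, adjusted p = 1.14e-12), and from 3 reads at 0 h and 1175 at 4 h the ratio was 438 with an exact 95% counting interval of 149.6 to 2128. LsERF061 (Lsat_1_v5_gn_9_54680.3) rose from 0.552, 0.284 and 0.576 CPM to 25.5, 22.1 and 29.7 CPM, a log2 fold change of 4.76 ± 0.25 (SE, adjusted p = 3.01e-12). In all 3 genes replicate 2 was the lowest of the 4 h libraries. The differences between these 3 estimates were not tested.

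LsERF060 (LsCBF7), matched most closely to Arabidopsis CBF2, had 3.91, 3.65 and 2.74 CPM at 0 h and 29.8, 20.4 and 33.3 CPM at 4 h. The groups lay apart, with replicate 2 the lowest at 4 h, and it had a log2 fold change of 2.83 ± 0.28 (SE, adjusted p = 9.66e-08). LsERF064 (LsCBF9) rose from 0, 0.0474 and 0.0480 CPM to 3.59, 1.69 and 2.70 CPM, which is 2 reads against 147 and a ratio of 82.2 (exact 95% counting interval 22.4 to 686). LsERF059 (LsCBF5) rose from 0.0502, 0 and 0 CPM to 2.12, 3.05 and 1.95 CPM, 1 read against 131 and a ratio of 147 (25.9 to 5834). In LsERF059 replicate 2 was the highest of the 4 h libraries, not the lowest. The log2 fold changes were 2.53 for LsERF064 and 2.46 for LsERF059, both past the threshold in every fit that left out a library. LsERF058 (LsCBF6), a separate gene beside LsERF059 whose identifier differs from that of LsERF059 only in its last digit, was not analysed here. The study reports that the genome annotation wrongly made LsERF058 a splice variant, and reads were counted per gene. Whether the values of LsERF059 include reads of LsERF058 is therefore not known.

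Outside the array, LsERF055 (LsCBF14), on linkage group 9 at 187031234-187031878, went from 3.36, 3.08 and 2.69 CPM to 8.31, 9.53 and 9.73 CPM, a log2 fold change of 1.45 ± 0.16 (SE, adjusted p = 5.61e-07). LsERF028 (LsCBF1), the copy on linkage group 2, went from 0.0502, 0 and 0.144 CPM to 1.79, 0.817 and 1.13 CPM, with a log2 fold change of 1.60 ± 0.22 (SE, adjusted p = 8.95e-06) and a ratio of 19.3 (exact 95% counting interval 7.21 to 72.8), and it was not called with a pseudocount of 2 (0.64) or with only the groups compared in the fit (adjusted p = 0.0123). LsERF056 (LsCBF3) went from 0.201, 0.190 and 0.192 CPM to 1.41, 1.03 and 2.16 CPM, a log2 fold change of 1.52 ± 0.36 (SE, adjusted p = 0.00226). These genes stayed low apart from LsERF055, and the call of LsERF056 rested on 4 h replicate 3, without which its log2 fold change was 1.30 at an adjusted p of 0.0133. Within the array, LsERF065 (LsCBF8) had no read at 0 h and 0.598, 0.272 and 0.595 CPM at 4 h, at least 3.35-fold higher against a floor of 3 reads per library. Its log2 fold change of 0.96 missed the threshold, and it was called by edgeR and, without 4 h replicate 2, at 1.13 (adjusted p = 0.000294 by limma). LsERF057 (LsCBF4), also in the array, did not reach the filter, with 0.10, 0 and 0 CPM at 0 h and 0.272, 0.109 and 0.324 CPM at 4 h. Its ratio of 7.27 had an interval of 1.65 to 66.4.

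**Figure D2:**
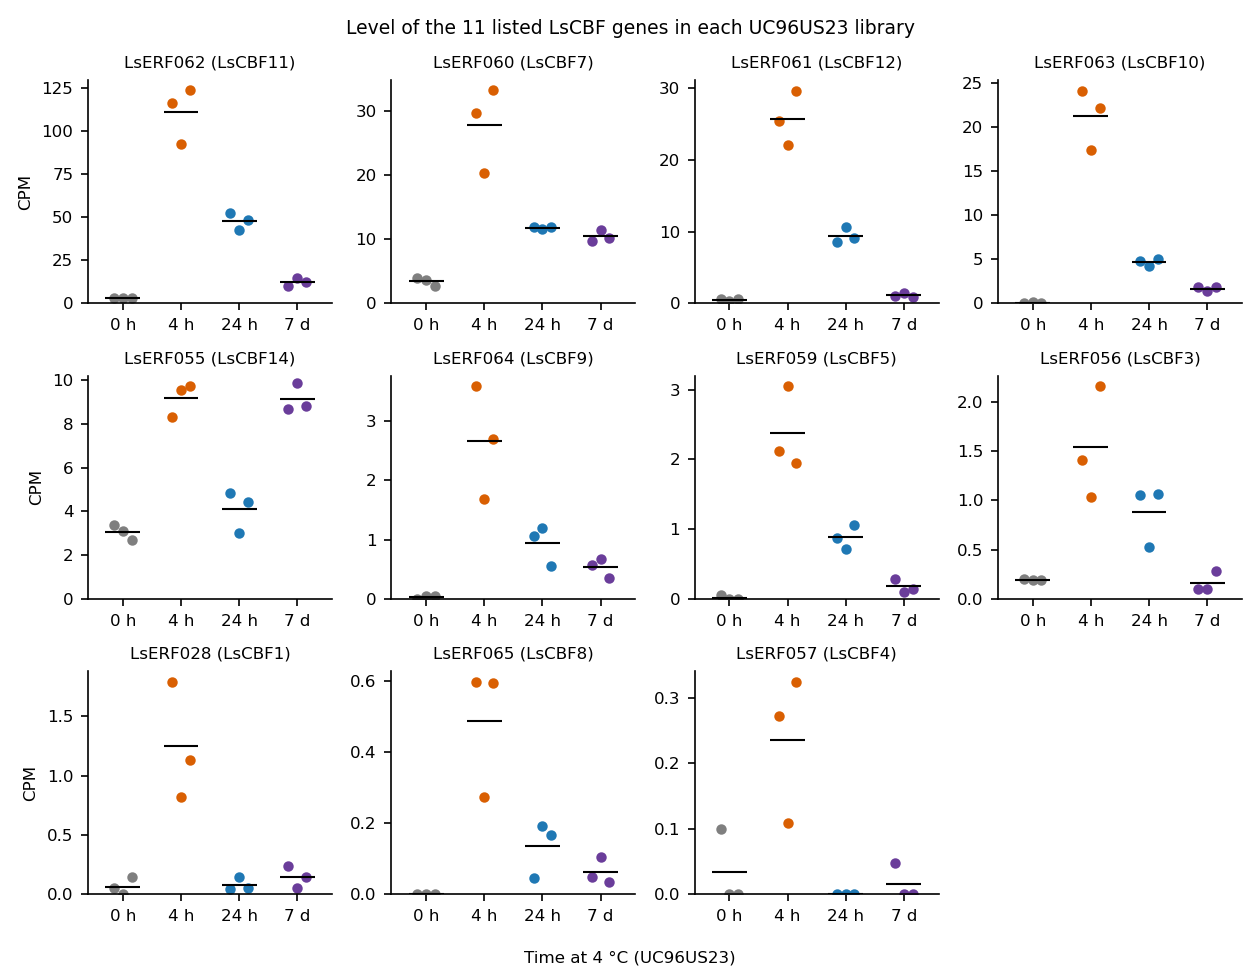
CPM (y axis, from 0, with its own scale in each panel) of the 11 listed LsCBF genes in each UC96US23 library by time at 4 °C (x axis), with a point for each of the 3 libraries and a line for their mean. The 4 h mean is the highest of the 4 times in all 11 genes, though for LsERF055 the means at 4 h and 7 d are 9.19 and 9.12 CPM.

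Summed over the 11 listed LsCBF genes, the level was 11.1, 10.5 and 9.60 CPM at 0 h and 214.1, 169.1 and 227.4 CPM at 4 h (means 10.4 ± 0.749 and 203.5 ± 30.6, SD, n = 3 each). The groups lay far apart in this sum, which does not depend on how reads were divided among the 11 listed copies. It would change if reads shared between copies were dropped or went to LsCBF genes that are not listed. The share of any single copy in the sum does depend on the division. LsERF062 made up 29.7% of the sum at 0 h and 54.5% at 4 h, the latter between 54.4% and 54.8% in all 3 libraries. Per 1000 bases of exon, LsERF062 also stood above the other LsCBF genes, at 175.2 CPM per kb at 4 h compared with 38.5 for LsERF061 and 32.1 for LsERF063, with LsERF060 left out because its gene model differs between the list and the file. LsERF065 was the only LsCBF gene tested that was not called. The 5 duplicated LsCBF pairs that include it therefore had 1 member called, and the other 20 of the 25 pairs tested had both. These pairs share genes and restate the calls of the single genes. Of the 11 duplicated pairs of other AP2/ERF genes, LsERF051 and LsERF052 were both upregulated and in the other 10 pairs neither gene was called. On linkage group 9, 10 tested genes outside the family had identifiers between those of LsERF059 and LsERF065. Of them, 1 was upregulated and 1 downregulated, where 4.3% and 2.33% of all genes tested were. Identifiers did not follow position within the array, so whether these genes lie in it is not known.

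Other DREB genes were also upregulated. LsERF009 of subgroup I, on linkage group 8 at 211844511-211845674, had 3.46, 3.93 and 3.99 CPM at 0 h and 32.4, 24.8 and 31.3 CPM at 4 h, with a log2 fold change of 2.80 ± 0.17 (SE, adjusted p = 6.23e-11). It was the greatest rise in the family outside the LsCBF genes, and the groups were well apart. The related LsERF005 went from 0.702, 1.33 and 0.528 CPM to 4.24, 3.32 and 5.03 CPM, a log2 fold change of 1.82. LsERF003 went from 4.01, 3.03 and 2.55 CPM to 11.8, 14.4 and 9.67 CPM, a log2 fold change of 1.76. Neither of these overlapped between the groups. With LsERF002, at a log2 fold change of 1.04, 4 of the 7 genes of subgroup I were upregulated. LsERF002 was not called when 0 h replicate 3, 4 h replicate 1 or 4 h replicate 3 was left out, at 0.96, 1.00 and 0.98 and so just under the threshold.

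LsERF073 of subgroup IV, matched to Arabidopsis DREB2H, went from 1.00, 1.04 and 1.20 CPM to 5.00, 4.41 and 4.43 CPM, with a log2 fold change of 1.69 ± 0.19 (SE, adjusted p = 8.04e-07). DREB2 genes are known in Arabidopsis mainly from drought and heat. In subgroup III, LsERF051 and LsERF052, both matched to Arabidopsis TINY2, had log2 fold changes of 1.64 and 1.21. LsERF051 rose from 0.702, 0.522 and 0.624 CPM to 2.55, 3.32 and 3.08 CPM, and LsERF046, also of subgroup III, from 1 read at 0 h to 45 at 4 h, a ratio of 50.4 with an exact 95% counting interval of 8.59 to 2033. LsERF050 had a log2 fold change of 1.06, and 0.95 without 0 h replicate 2. In subgroup II, LsERF015 had no read in any 0 h library and 0.326, 0.599 and 0.757 CPM at 4 h, at least 3.85-fold higher against a floor of 3 reads per library, and it was not called without 4 h replicate 3, at 0.93.

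LsERF001 moved the other way and was the greatest fall of the family. This gene of subgroup I, on linkage group 1 at 5167457-5168443, is matched to Arabidopsis RAP2.4, known from light and drought responses. It had 33.2, 29.0 and 27.4 CPM at 0 h and 11.4, 9.37 and 10.4 CPM at 4 h, a log2 fold change of -1.48 ± 0.11 (SE, adjusted p = 1.48e-09). The lowest 0 h library lay far above the highest 4 h library, and the fall was kept whichever library was left out. LsERF023 of subgroup II, matched to DEAR2, fell from 2.96, 3.65 and 3.12 CPM to 1.90, 0.708 and 1.73 CPM, a log2 fold change of -1.002 that was lost without 0 h replicate 2 (-0.93, adjusted p = 0.0129) or 4 h replicate 2 (-0.69, adjusted p = 0.0207).

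In the ERF subfamily, LsERF080 and LsERF086 of subgroup V were upregulated. Both are matched to Arabidopsis SHN1, an activator of cuticular wax synthesis. LsERF080 had 1.10, 2.94 and 2.88 CPM at 0 h and 8.97, 5.06 and 10.3 CPM at 4 h, a log2 fold change of 1.64 ± 0.25 (SE, adjusted p = 3.34e-05). The libraries were scattered but did not overlap, and the call was lost with only the groups compared in the fit (adjusted p = 0.0518). LsERF086 went from 0.251, 0.237 and 0.384 CPM to 1.52, 1.63 and 1.19 CPM, a log2 fold change of 1.30.

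Subgroup VIII, which in Arabidopsis includes repressors with an EAR motif, held 5 upregulated genes of 13. LsERF116, matched to Arabidopsis ERF4, had 0.251, 0.284 and 0.672 CPM at 0 h and 1.68, 1.91 and 3.03 CPM at 4 h, a log2 fold change of 1.58 ± 0.29 (SE, adjusted p = 0.000231), which was not called with a pseudocount of 2 (0.80) or with only the groups compared in the fit (adjusted p = 0.0184). LsERF117 and LsERF121, matched to the same Arabidopsis gene, had log2 fold changes of 1.20 and 1.06, and LsERF121 was not called without 4 h replicate 2, at 0.85. LsERF126 and LsERF127, both matched to Arabidopsis ERF9, had 1.37 and 1.40. In subgroup VI, which holds cytokinin response factors, LsERF100, LsERF104 and LsERF096 were upregulated by 1.57, 1.55 and 1.13 on the log2 scale, and LsERF096 was at 0.99 without 4 h replicate 2. LsERF188 of subgroup VI-L was upregulated by 1.53.

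Subgroup IX, known in Arabidopsis for ethylene and jasmonate responses in defence, held 26 tested genes, the most of any subgroup, of which 3 were upregulated. LsERF137, matched to ERF105, went from 5.22, 3.75 and 4.23 CPM to 13.3, 14.8 and 12.2 CPM. LsERF133, matched to ERF1, went from 7.68, 8.15 and 8.16 CPM to 18.9, 26.9 and 19.6 CPM. Their log2 fold changes were 1.52 and 1.37, and neither gene overlapped between the groups. LsERF152 had 1.07, was not called by edgeR, and was lost without 0 h replicate 1 (0.86), 4 h replicate 1 (adjusted p = 0.0126) or 4 h replicate 2 (0.98). LsERF171, matched to ERF5, fell from 46.0, 35.6 and 41.1 CPM to 16.2, 25.9 and 16.9 CPM, and replicate 2 was the least reduced. Its log2 fold change of -1.06 ± 0.15 (SE, adjusted p = 1.39e-05) was -0.97 without 0 h replicate 1, -0.94 without 4 h replicate 1 and -0.97 without 4 h replicate 3.

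LsRAV.3, matched to Arabidopsis RAV1, was the only upregulated RAV gene, and the other RAV gene tested had a log2 fold change of 0.42. It had 33.5, 28.3 and 29.1 CPM at 0 h and 120.9, 154.3 and 134.7 CPM at 4 h, a log2 fold change of 2.15 ± 0.11 (SE, adjusted p = 1.16e-12). Per 1000 bases of exon it reached 133.6 CPM per kb at 4 h, below LsERF062. In the AP2 subfamily, LsAP2.28 rose from 43.6, 39.4 and 35.3 CPM to 81.4, 77.5 and 82.5 CPM, a log2 fold change of 1.02 that was 0.95 without 0 h replicate 3. The study placed LsAP2.28 in this subfamily, while the closest Arabidopsis match given for it is also that given for LsERF188 of subgroup VI-L. LsAP2.14, matched to Arabidopsis WRI3, a regulator of fatty acid synthesis, fell from 6.37, 7.16 and 4.99 CPM to 3.21, 2.34 and 2.27 CPM, with a log2 fold change of -1.10 ± 0.17 (SE, adjusted p = 3.55e-05) which fell just short of the threshold without 0 h replicate 2, at -0.997.

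**Figure D3:**
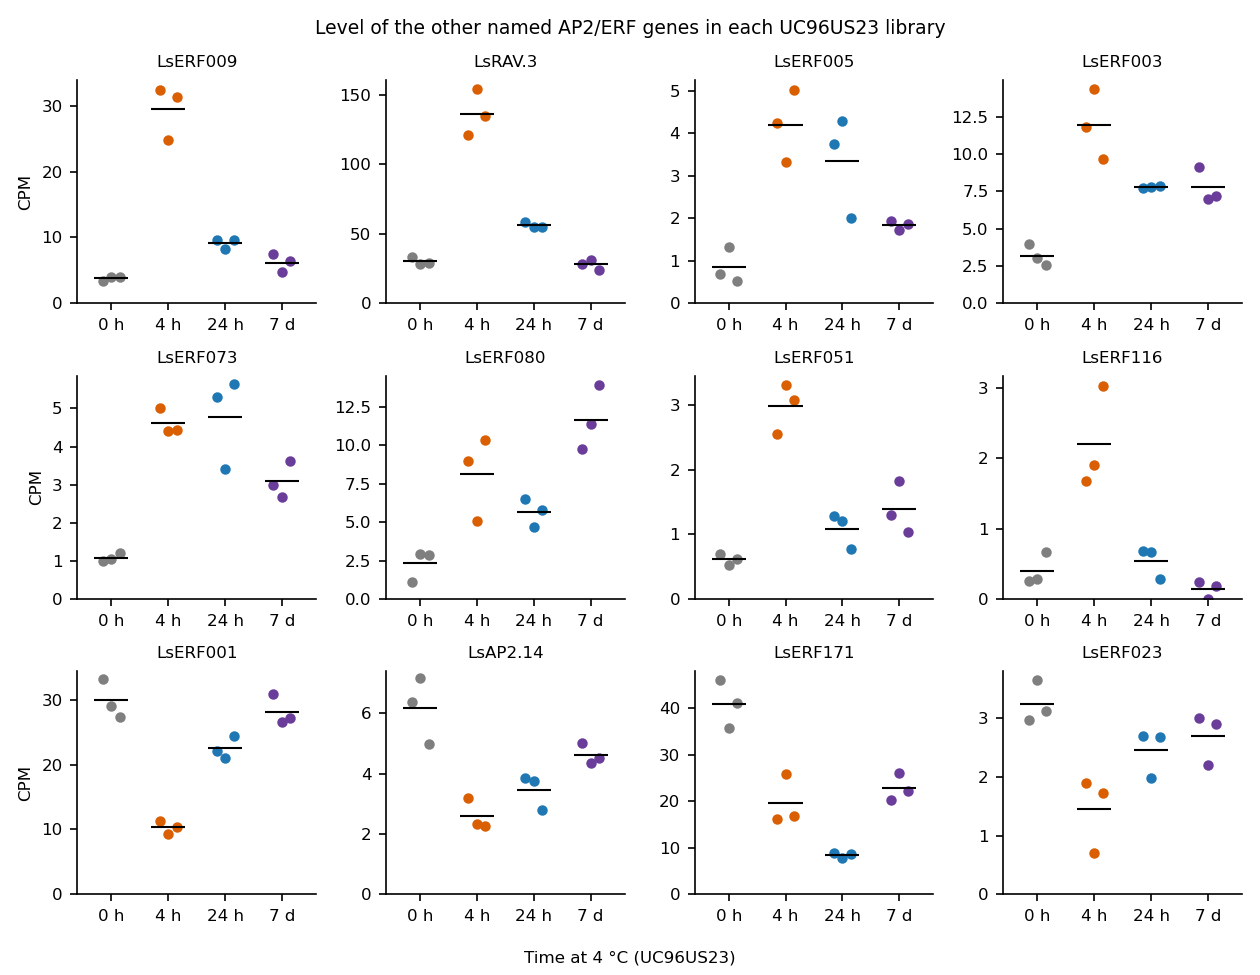
CPM (y axis, from 0, with its own scale in each panel) of 8 upregulated and 4 downregulated AP2/ERF genes outside the LsCBF genes in each UC96US23 library by time at 4 °C (x axis), with a point per library and a line for the mean of 3. LsERF009 and LsRAV.3 are highest at 4 h, whereas LsERF080 is highest at 7 d and LsERF171 lowest at 24 h.

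**Figure D4:**
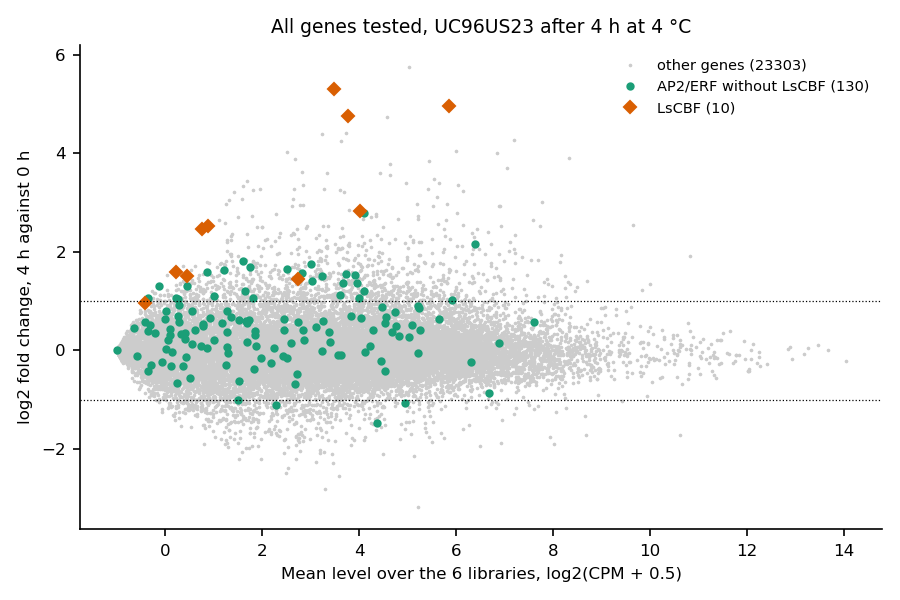
Log2 fold change at 4 h of cold against 0 h (y axis) against the mean level over the 6 libraries (x axis, log2(CPM + 0.5)) for the 23443 genes tested in UC96US23, with AP2/ERF genes in green and LsCBF genes as orange diamonds. The 3 highest LsCBF genes stand at 4.76, 4.96 and 5.31, near the top of all genes.

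The rise at 4 h was then set beside the later times in the same cultivar. Between 4 h and 24 h of cold, 968 genes rose (4.13%) and 1220 fell (5.2%), 9.33% together. By their time labels, the 24 h libraries fall at the clock time of the 0 h libraries and not at that of the 4 h libraries. Longer cold and clock time therefore cannot be told apart between 4 h and 24 h, also for the single genes below. Among the AP2/ERF genes, 6 rose and 27 fell, and 8 of those that fell were LsCBF genes. This comparison shares the 4 h libraries with the one above, so a gene measured too high at 4 h would appear in both, and the values are given side by side without a test of their relation. The summed LsCBF level was 80.7 ± 5.62 CPM at 24 h and 35.8 ± 3.64 CPM at 7 d (SD, n = 3 each), between the levels at 4 h and at 0 h. The lowest 24 h library, at 74.8 CPM, lay above the highest 0 h library, at 11.1 CPM, and this gap was not tested. LsERF062 had means of 47.8 CPM at 24 h and 12.2 CPM at 7 d. LsERF009 had 9.16 and 6.18 CPM, and LsRAV.3 had 56.3 and 28.1 CPM, the latter near its 0 h level.

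Not all of the genes upregulated at 4 h were lower later. LsERF073 had a mean of 4.79 CPM at 24 h, and its log2 fold change between 4 h and 24 h was 0.02. LsERF086 was higher at 24 h, at 3.62 CPM and a log2 fold change of 1.09 against 4 h. LsERF080 had 5.67 CPM at 24 h and 11.7 CPM at 7 d. Of the downregulated genes, LsERF001 was back at 22.5 CPM at 24 h (log2 fold change 1.08 against 4 h) and 28.1 CPM at 7 d, near its 0 h level, whereas LsERF171 was lower still at 24 h, at 8.50 CPM (log2 fold change -1.13 against 4 h).

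In PI 284702, 799 genes were upregulated at 4 h of cold (3.41%) and 165 were downregulated (0.704%), 4.11% together. The cultivars share no libraries. Of the genes upregulated in UC96US23, 573 were also upregulated in PI 284702, which is 56.8% of the UC96US23 genes and 71.7% of the PI 284702 genes. Of the downregulated genes, 86 were common, 15.8% of the UC96US23 genes and 52.1% of the PI 284702 genes. The fold change in PI 284702 had the sign of that in UC96US23 for 978 of the 1009 genes upregulated in UC96US23 and for 500 of the 546 downregulated, at medians of 1.18 and -0.61. PI 284702 had 2 libraries at 0 h where UC96US23 had 3. In the AP2/ERF family, 27 genes were upregulated in PI 284702, and 23 were upregulated in both cultivars, 65.7% of those in UC96US23 and 85.2% of those in PI 284702. All 35 AP2/ERF genes upregulated in UC96US23 had a fold change above 0 in PI 284702, at a median of 1.24. None of the 4 AP2/ERF genes downregulated in UC96US23 was called in PI 284702, where limma called 0 AP2/ERF genes downward. Their log2 fold changes in PI 284702 were all below 0 (median -0.71), at -0.74 for LsERF001, -0.43 for LsERF023, -0.84 for LsERF171 and -0.69 for LsAP2.14.

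The difference between the cultivars was tested itself. Over all genes, 32 of the 23443 passed by limma (0.137%). The log2 fold change in UC96US23 was more positive than in PI 284702 for 0.0384% and more negative for 0.0981%. Of the 140 AP2/ERF genes, 0 passed, by limma and by edgeR. At an unadjusted p under 0.05 there were 29 AP2/ERF genes (20.7%), where 3857 of all genes (16.5%) were. The smallest adjusted p in the family was that of LsERF001, at -1.48 in UC96US23 and -0.74 in PI 284702, a difference of -0.74 ± 0.17 (SE, adjusted p = 0.0419 by limma). LsERF025, a DREB gene of subgroup III, was at 0.37 in UC96US23 and -0.26 in PI 284702 (difference 0.63 ± 0.15, SE, adjusted p = 0.0673). LsERF173, matched to Arabidopsis ERF105, was at 0.79 and 1.60 (difference -0.82 ± 0.21, SE, adjusted p = 0.0772), and it passed the threshold against 0 h only in PI 284702.

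In PI 284702, 8 of the 10 LsCBF genes tested were upregulated. The mean sum over the LsCBF genes was 18.0 CPM at 0 h (22.5 and 13.4 CPM in the libraries) and 286.9 CPM at 4 h. LsERF062 made up 33.1% of that sum at 4 h, against 54.5% in UC96US23, and no test was made of this share. Its own mean was 94.9 CPM in PI 284702 and 110.9 CPM in UC96US23 at 4 h. LsERF060 had means of 63.6 and 27.8 CPM at 4 h, and LsERF055 had 40.2 and 9.19 CPM, in PI 284702 and UC96US23 respectively. At 0 h, LsERF055 already had 214 and 228 reads in the PI 284702 libraries, against 67, 65 and 56 in UC96US23. LsERF060 had 148 and 60 reads at 0 h in PI 284702, against 78, 77 and 57. These are reads and not CPM, and the PI 284702 libraries had depths of 19740035 and 27429184 reads, against 19932942 to 21092969 in UC96US23. At that greater depth, the 60 reads of LsERF060 were a lower level than in any UC96US23 library at 0 h. The reference genome is that of another cultivar, Salinas, and any effect of mapping on these levels and shares was not tested. The difference in log2 fold change between the cultivars was -0.95 for LsERF060 (SE 0.42, adjusted p = 0.269) and -0.57 for LsERF055 (SE 0.24, adjusted p = 0.260), neither of which passed the test.

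**Figure D5:**
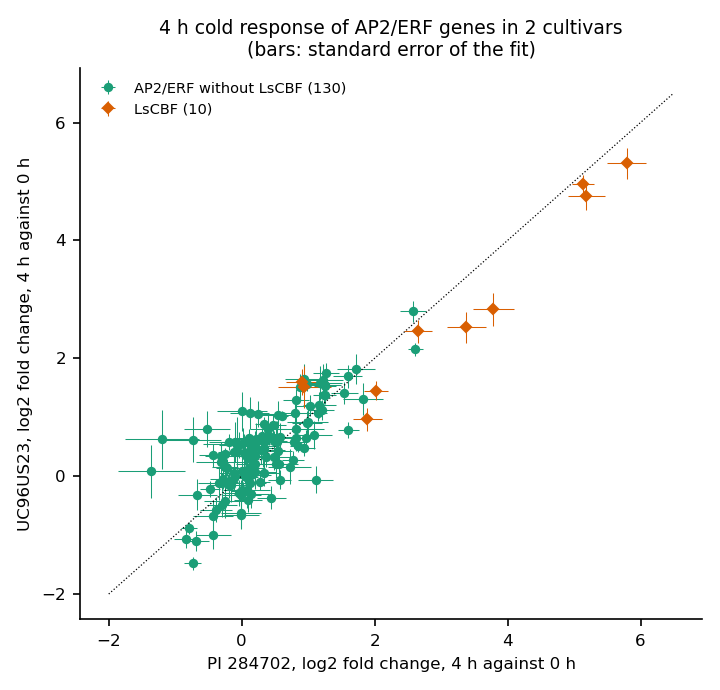
Log2 fold change at 4 h of cold against 0 h in UC96US23 (y axis) and in PI 284702 (x axis) for the 140 AP2/ERF genes tested, with bars for the standard error of each estimate and a dotted line of equal change. Of the LsCBF genes (orange diamonds), 3 lie above 4 in both cultivars, and the difference between the cultivars passed the test in 0 of the 140 genes by limma and by edgeR, with 29 at an unadjusted p under 0.05 (20.7%, against 16.5% of all genes).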

How the data were processed

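The authors deposited CPM per gene for 23 libraries of UC96US23 and PI 284702. Per the labels, reads were aligned with STAR 2.5.2 and counted with featureCounts, and edgeR is named without a version. The gene identifiers are those of lettuce genome version 8, and names and positions of AP2/ERF genes come from the gene list of the study. Every library summed to 1000000, and 100% of the values were whole reads within 0.01 of a read once divided by the value of 1 read, so depths and reads are recovered ones. Intervals and floors (3 reads) cover counting error only.

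Genes with at least 0.5 CPM in at least 2 libraries were fitted as log2(CPM + 0.5) with limma 3.58.1 (lmFit, contrasts.fit, eBayes with trend) in R 4.3.3, all 23 libraries in 1 fit, with Benjamini-Hochberg adjustment over the 23443 genes. The filter and thresholds follow the study's methods. The contrasts were 4 h against 0 h in each cultivar, their difference, and 24 h against 4 h in UC96US23. Nothing in the labels says that the cold replicates came from separate cultures, so p-values measure the spread between these samples. Alternatives were pseudocounts of 0.1 and 2, no filter, median-centred libraries, the groups compared alone, no fold limit, a block by replicate number, a TMM-scaled quasi-likelihood fit in edgeR 4.0.16, and leaving out each library. The count over genes detected at 0 h was chosen after seeing the data. The fits were tested on simulated data.

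Named were all listed LsCBF genes, the 8 other AP2/ERF genes that rose most and the 8 that fell most among those called (4 were), the identifiers with the greatest rise and fall, and the 3 AP2/ERF genes with the smallest p for the cultivar difference. LsERF044 (LsCBF2), LsERF054 (LsCBF13) and LsERF058 (LsCBF6) were not listed with values. The other upregulated AP2/ERF genes were named after their values were seen. The members and lists were chosen with earlier results of these data known. Gene lists by product name, tissue markers and promoter motifs were not run, since the identifiers could not be matched to the reference table at hand, and no sequences are shown.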

Additional observations from a re-analysis of the deposited data

Results flagged for a closer look

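The difference between UC96US23 and PI 284702 in the 4 h response passed the test by limma in 32 of 23443 genes. The log2 fold change was more positive in UC96US23 than in PI 284702 in 9 of them and more negative in 23. The differences in log2 fold change ran from -2.81 to 2.58. Of these 32 genes, 5 were at 0 in all 6 UC96US23 libraries and 4 were at 0 in all 5 PI 284702 libraries. The estimates were upward in UC96US23 and downward in PI 284702 in 4 genes, and the reverse in 8. Without a single library, the 9 became 2 (without PI 284702 0 h replicate 1) to 9 and the 23 became 8 (without PI 284702 0 h replicate 2) to 26. The 32 genes include 0 AP2/ERF genes and are not named, because their identifiers are not paired with names here.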

How the results depend on the processing

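No log2 fold change of a named gene changed direction under the alternatives run, but the balance of counts did. Without the fold limit, more genes were lower than higher at 4 h. With edgeR, more positive changes outnumbered more negative ones in the cultivar difference, the reverse of the main fit. With a pseudocount of 2, 654 genes were upregulated and 229 downregulated at 4 h in UC96US23, AP2/ERF genes 21 and 2. Between 4 h and 24 h 703 genes fell, and of AP2/ERF genes 17 fell and 2 rose. The cultivar difference then held 19 more positive changes in UC96US23. A pseudocount of 0.1 gave 5 more positive and 12 more negative changes in UC96US23 in the cultivar difference. With only the groups compared in the fit, 470 genes were upregulated and 100 downregulated, 1 AP2/ERF gene was downregulated, 772 genes fell between 4 h and 24 h, AP2/ERF genes 17, and the cultivar difference held 0 and 4. With edgeR it held 7 and 4. With no fold limit, 2659 genes were higher and 2869 lower at 4 h. The causes of these shifts, other than fewer samples or a changed threshold, were not tested.

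Leaving out 1 library at a time gave 872 to 1056 upregulated and 329 to 800 downregulated genes, 33 to 35 and 2 to 4 AP2/ERF genes, 8 to 10 LsCBF genes, and 2 to 9 and 8 to 26 genes in the cultivar difference. Downregulated genes numbered 329 without 4 h replicate 2, and AP2/ERF genes 2 without 0 h replicate 2. The LsCBF count of 9 was 7 to 10 over all alternatives.

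The deviations of same-numbered replicates from their group means had correlations of -0.10, -0.15 and 0.03, and those of differently numbered ones -0.16 to 0.25. With 3 libraries per group, these values cannot decide whether the numbers pair the samples. With the replicate block, 1017 genes were upregulated and 551 downregulated, AP2/ERF genes 35 and 4, LsCBF genes 9, the cultivar difference held 8 and 20, and between 4 h and 24 h 974 rose and 1226 fell, AP2/ERF genes 6 and 27. Planned lists by product name, tissue markers and motifs were not run. Genes near 1 read per library are limited by depth.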
